A study of Homo sapiens with 14 samples.

Results

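The genes described here are 39 genes of the lysosome, picked by symbol from the 27819 genes that the 4 count tables share. They comprise 15 subunits and accessory proteins of the proton pump, 8 cathepsins and other peptidases, 10 glycosidases and soluble cofactors, and 6 genes for membrane proteins and the regulator TFEB. All 39 were found in each table and all 39 passed the filter on low counts in each comparison.

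The cells were CWR22RV1, an established human prostate cancer cell line that expresses the androgen receptor, and all libraries came from this line. Treatment lasted 72 h. There were 3 libraries of cells in DMSO, the vehicle, and 3 of cells in Fucotrim I at 30 μM. Fucotrim II at 60 μM gave 2 libraries, and SGN-2FF at 100 μM and P-SiaFNEtoc at 2 μM gave 3 each. Both Fucotrims and SGN-2FF block fucosylation metabolically, and P-SiaFNEtoc blocks sialylation. The study states that both Fucotrims also lower GDP-mannose levels, and it saw apoptosis in this line with both. The study reports that both Fucotrims inhibited fucosylation in this line, with unequal effectiveness. Binding of a fucose lectin fell too little with Fucotrim I for the study to determine an inhibitory dose. With Fucotrim II it determined the dose for the weaker but not for the stronger inhibition it assessed. It also reports that a lectin panel gave similar results here to another prostate cancer line, where Fucotrim I strongly reduced binding of fucose lectins. The part of each of these effects in the values below was not tested. The study measured mRNA by RNA-seq to find the genes that change when either kind of sugar is kept off glycans, and each inhibitor was compared with DMSO. Doses differed between the inhibitors, so their values stand side by side below and were not tested against each other. The same DMSO libraries served every comparison.

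The lysosome breaks down proteins, glycans and lipids in an acidic lumen. The vacuolar proton pump acidifies it, with a membrane sector (V0) that carries protons and a cytosolic sector (V1) that hydrolyses ATP. Most lysosomal enzymes and membrane proteins are themselves N-glycosylated, and many soluble ones reach the lysosome through phosphate tags on their mannose residues. The transcription factor TFEB and its relatives TFE3 and MITF bind the letters CACGTG, often within TCACGTGA, near the start of many lysosomal genes.

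RefSeq promoter windows (250 bases before to 50 bases after the start of the gene, GRCh38.p14) were at hand for 28 of the 39 genes. CACGTG, which reads the same on both strands, was found in 8 of the 28 windows (28.6%) and in 2030 of all 27305 windows (7.43%). TCACGTGA, which contains CACGTG and also reads the same on both strands, was found in 6 of the 28 (21.4%) and in 283 of the 27305 (1.04%). The 8 genes were ATP6V0B, ATP6V0D1, ATP6V1G1, CTSA, CTSD, GAA, LAMP1 and MCOLN1, and those with the longer form were ATP6V0D1, ATP6V1G1, CTSA, GAA, LAMP1 and MCOLN1. The stretches below are shown because these letters are the pattern that TFEB recognises and because several of these genes recur in the results. Further matches in LAMP1, MCOLN1, CTSA and ATP6V0B and the match in ATP6V1G1 are not shown. Capitals mark the letters searched for, and each stretch is written on the strand of its gene.
GAA, chr17:80101495-80101520, plus strand: gaggccgcgTCACGTGAcccaccgcg
GAA, chr17:80101540-80101565, plus strand: tcccgccggTCACGTGAcccgcctct
MCOLN1, chr19:7522573-7522598, plus strand: cagaggcggTCACGTGAggggctctg
LAMP1, chr13:113297201-113297226, plus strand: cccgcgggaTCACGTGAcgcccgggc
CTSA, chr20:45891300-45891325, plus strand: cgccggagtTCACGTGActcgtacac
ATP6V0D1, chr16:67481201-67481226, minus strand: cccttatggTCACGTGAggcgcttgc
CTSD, chr11:1763959-1763984, minus strand: cggccgcgccCACGTGaccggtccgg
ATP6V0B, chr1:43974893-43974918, plus strand: ggcgtggggtCACGTGgtaccggcgc
These matches describe the sequence and were not tested for binding. The genes without a window were ATP6V0E1, ATP6V1A, ATP6V1B2, ATP6V1C1, ATP6V1H, CTSB, HEXA, LAMP2, MANBA, NAGLU and PSAP.

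In DMSO the genes covered a wide range of levels. Levels between genes are given as CPM per kilobase of all annotated exons. The highest was ATP6V0C, the proteolipid of the membrane ring of the pump, at 213.8 ± 6.08 (SD, n = 3), followed by ATP6V1F at 179.7 ± 4.22 and by PSAP, the precursor of the saposins, at 164.3 ± 4.07. ATP6V0B stood at 75.2 ± 3.93, the protease CTSD at 37.8 ± 1.52 and the acid glucosidase GAA at 33.6 ± 0.678. From GAA (33.6) to LAMP1 (33.3 ± 2.68) and ATP6V0E1 (32.0 ± 1.19), neighbours in this order lay within their spread. At the low end were NPC1 (2.70 ± 0.0984), TFEB (2.36 ± 0.179), MANBA (2.11 ± 0.170), CTSH (1.95 ± 0.0951), HEXA (1.38 ± 0.0971) and CTSC (0.836 ± 0.0599). Per kilobase of the longest transcript the first 4 and the last gene kept their places, while SCARB2 moved from place 17 to place 8 and ATP6V1E1 from place 10 to place 5. ATP6V0C shares 76.3% of its exon bases with readthrough genes on the same strand, so its level depends on how such reads were counted.

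**Figure D1:**
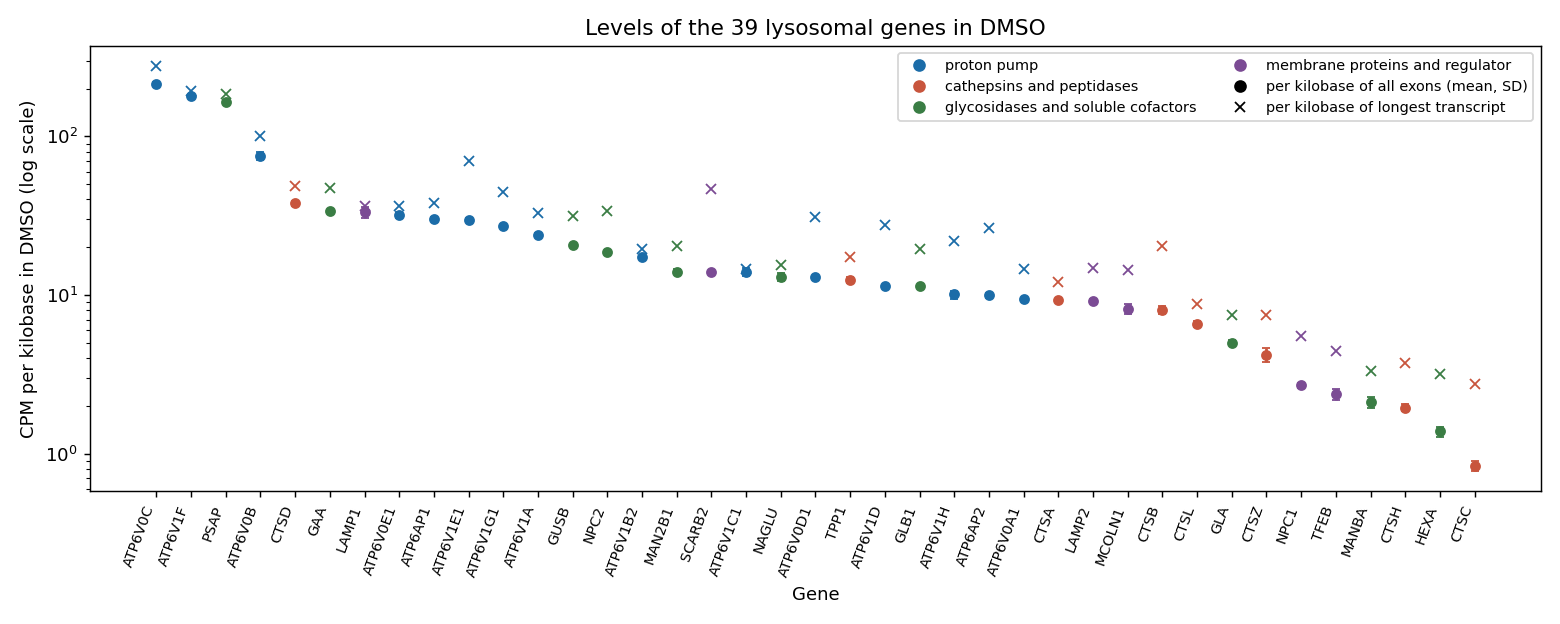
Levels of the 39 genes in DMSO in CPM per kilobase on a log scale, ordered from left to right by level. Circles are the mean and SD of 3 libraries per kilobase of all exons and crosses the mean per kilobase of the longest transcript, running from ATP6V0C at 213.8 to CTSC at 0.836.

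The libraries held between 12553094 and 19981453 counts on genes. In DMSO, 9 markers of prostate luminal epithelium summed to between 2492 and 2595 CPM, led by KRT8, while 4 endothelial markers summed to at most 0.222 CPM, 5 leukocyte and macrophage markers (led by CD68) to at most 6.65 and 5 fibroblast markers (led by COL1A1) to at most 21.3. None of these 23 markers had a count of 0 in all 14 libraries. The luminal sum was higher in treated cells, at 3329 to 3416 CPM with Fucotrim I, 3070 and 3358 with Fucotrim II, 3051 to 3166 with SGN-2FF and 2873 to 2952 with P-SiaFNEtoc, and its part in the results was not tested. The fibroblast sum was 26.2 and 33.0 CPM with Fucotrim II and 21.3 to 22.6 with P-SiaFNEtoc, and the leukocyte sum was 7.14 to 8.86 CPM with SGN-2FF, each above every DMSO library. Of the fibroblast and leukocyte markers, 1 was called higher with Fucotrim II and 1 with SGN-2FF, and their part was not tested either. Of the 9 luminal markers, 6 were called higher with Fucotrim I, 6 with Fucotrim II, 7 with SGN-2FF and 6 with P-SiaFNEtoc, and none lower. These shares of 66.7% to 77.8% stood against 9.02% to 25.6% of all genes. In bulk RNA, more cells with a transcript and more transcript per cell cannot be told apart. The labels call the libraries of a group replicates and the study states biological repeats.

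With Fucotrim I, 20 of the 39 genes (51.3%) were higher than in DMSO and 3 (7.69%) were lower at an adjusted p under 0.05 (from edgeR's quasi-likelihood fit, with p-values adjusted by the Benjamini-Hochberg method over all genes tested, as for every adjusted p below). The background was wide, since 21.6% of the 14188 genes tested were higher and 22.1% were lower. With Fucotrim II, 21 genes (53.8%) were higher and 5 (12.8%) lower, against 25.6% and 25.7% of 14617 genes. With SGN-2FF, only TFEB was higher and only NPC1 lower (2.56% each), against 11.5% and 9.08% of 14312 genes. With P-SiaFNEtoc, NAGLU, GAA, CTSD and TFEB were higher (10.3%) and NPC1 was lower (2.56%), against 9.02% and 7.33% of 14259 genes, which is near the background. The 39 genes had a median log2 fold change of 0.15 under Fucotrim I, 0.26 under Fucotrim II, -0.015 with SGN-2FF and 0.023 with P-SiaFNEtoc. Without Fucotrim II library 2 the median with Fucotrim II was 0.13, and without Fucotrim I library 1 that with Fucotrim I was 0.10. Over all genes tested these medians lay between 0.00040 and 0.0075.

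The fold changes of all genes followed GC content. With Fucotrim II, the median log2 fold change was -0.30 in the lowest of 4 equal bins of genes by GC content and 0.36 in the highest bin, and with Fucotrim I the values were -0.17 and 0.21. With SGN-2FF they were -0.060 and 0.080, and with P-SiaFNEtoc -0.086 and 0.093. The DMSO libraries themselves ranged from -0.052 to 0.030 against their mean in the bin of highest GC content, whereas the Fucotrim I libraries lay at 0.23, 0.12 and 0.22 and the Fucotrim II libraries at 0.26 and 0.40. Whether this trend belongs to the cells or to the libraries was not tested. Each comparison was therefore also made after taking out, per library, the smooth trend with GC content and exon length, a correction chosen after seeing the data. With it, 15 of the 39 genes (38.5%) were higher and 4 (10.3%) lower with Fucotrim I, against 18.7% and 20.5% of all genes. With Fucotrim II the counts were 23 (59.0%) and 2 (5.13%) against 22.7% and 24.1%, with SGN-2FF 1 (2.56%) and 6 (15.4%) against 12.2% and 11.0%, and with P-SiaFNEtoc 3 (7.69%) and 1 (2.56%) against 7.45% and 5.40%. The corrected medians of the 39 genes were 0.072 with Fucotrim I, 0.22 with Fucotrim II, -0.0093 with SGN-2FF and 0.041 with P-SiaFNEtoc. Below, a corrected value is one from this second fit, and it is given where it ends a call, turns its direction or moves the value by over 1.5 times.

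**Figure D2:**
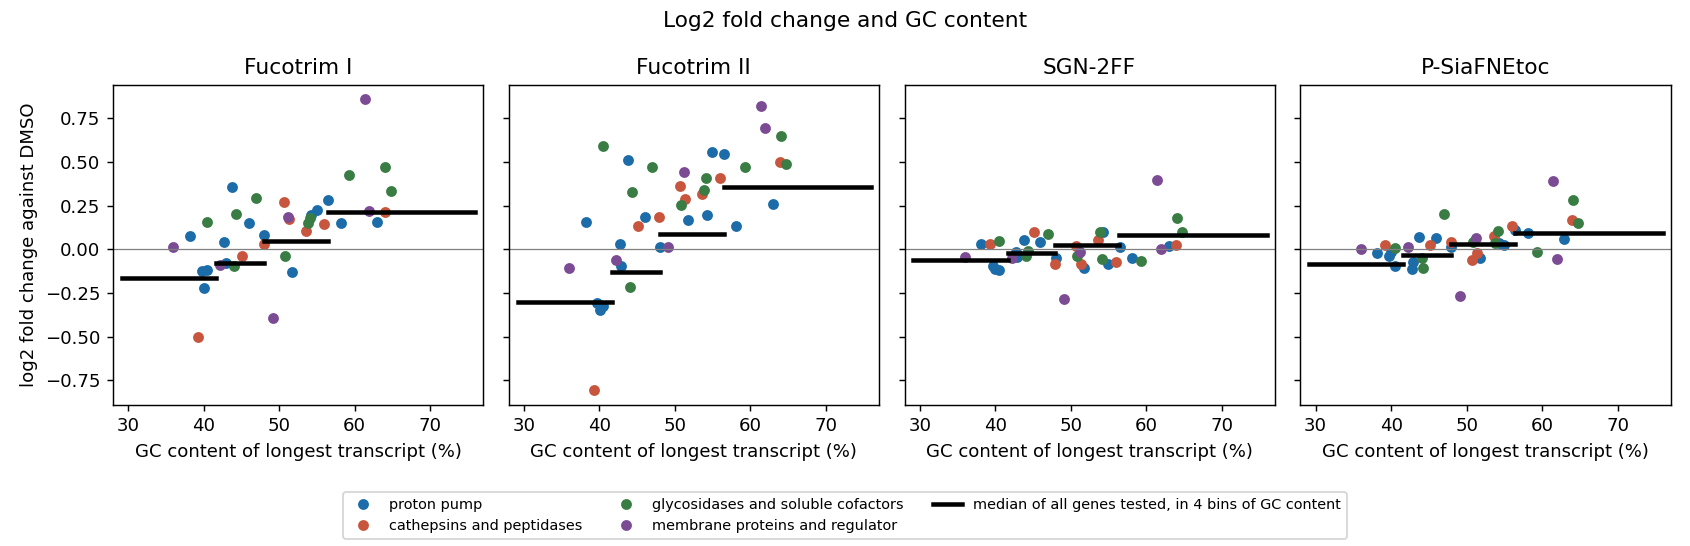
Log2 fold change of the 39 genes against the GC content of their longest transcript in percent, 1 panel per inhibitor, with black bars for the median of all genes tested in each of 4 bins of GC content. The bars climb from -0.30 to 0.36 with Fucotrim II and from -0.060 to 0.080 with SGN-2FF, and over the 39 genes Spearman's rho between the axes is 0.68 and 0.25 in these panels.

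TFEB, the regulator, was the gene of the 39 that was higher with each of the 4 inhibitors. Its level in the DMSO libraries was 16.8, 14.5 and 16.4 CPM. It was 31.0, 27.7 and 27.4 CPM with Fucotrim I, 25.3 and 30.9 with Fucotrim II, 21.1, 21.6 and 19.3 with SGN-2FF, and 20.2, 20.3 and 21.9 with P-SiaFNEtoc. Every treated library lay above every DMSO library, with no overlap. The log2 fold change was 0.86 ± 0.087 (SE, adjusted p = 1.63e-07) with Fucotrim I, a level 1.81 times that in DMSO. It was 0.82 ± 0.11 with Fucotrim II (adjusted p = 0.000286), 0.40 ± 0.083 with SGN-2FF (adjusted p = 0.00105) and 0.39 ± 0.080 with P-SiaFNEtoc (adjusted p = 0.000933). The rise was called in every alternative that kept the threshold of 0.05, and the corrected value was 0.49 with Fucotrim II, against 0.82. TFE3 and MITF, the related factors, did not pass the test with any inhibitor, with log2 fold changes of -0.038 to 0.076 for TFE3 and -0.26 to 0.090 for MITF.

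**Figure D3:**
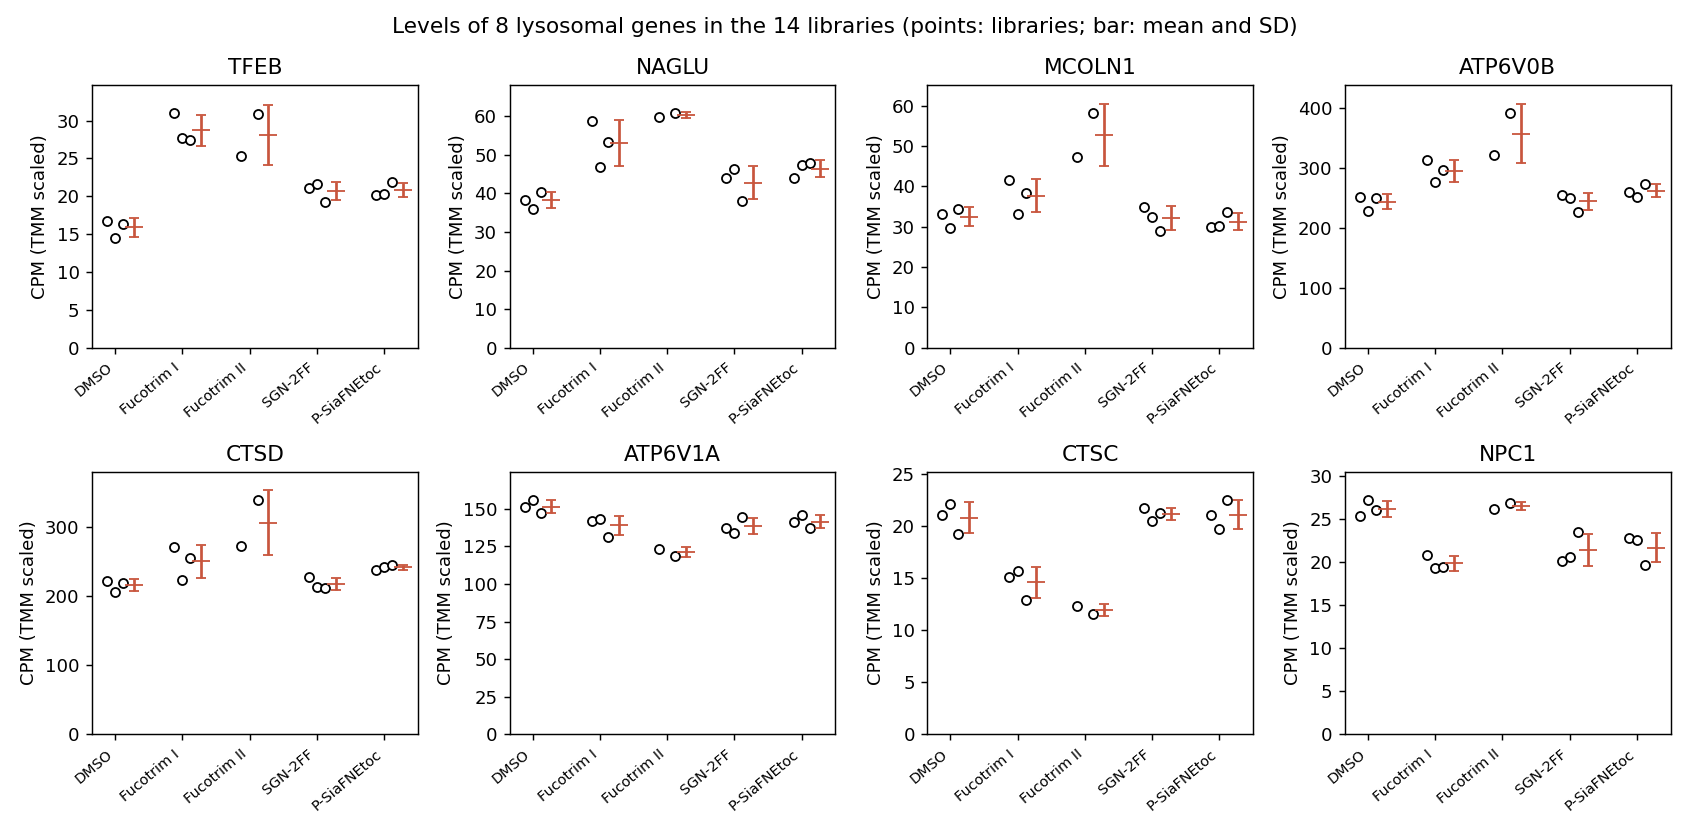
Levels of 8 of the genes in CPM after TMM scaling, from 0, in each of the 14 libraries, with the mean and SD of each group in red. TFEB lies above DMSO with all 4 inhibitors, NAGLU, ATP6V0B and CTSD are highest with Fucotrim II, CTSC is low with the 2 Fucotrims, and NPC1 is low with Fucotrim I, SGN-2FF and P-SiaFNEtoc.

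Among the 15 genes of the proton pump, 7 rose and 1 fell with Fucotrim I, 4 rose and 3 fell with Fucotrim II, and none passed the test with SGN-2FF or P-SiaFNEtoc. With those last 2 inhibitors the log2 fold changes of the 15 stayed between -0.12 and 0.11. With Fucotrim II the share that rose, 26.7%, was near the 25.6% of all genes, and the share that fell was below their 25.7%. With Fucotrim I the shares were 46.7% and 6.67%, against 21.6% and 22.1%. After correction 6 of the 15 were higher and 2 lower with Fucotrim I, against 18.7% and 20.5% of all genes. With Fucotrim II 6 were higher and 1 lower, against 22.7% and 24.1%. Of the 5 V0 genes, 4 rose with Fucotrim I and 3 with Fucotrim II and none fell, whereas of the 8 V1 genes, 2 rose and 1 fell with Fucotrim I, and none rose and 3 fell with Fucotrim II. This contrast in counts did not stay after correction, where 2 V0 genes were higher and 2 lower with Fucotrim I and 2 higher and 1 lower with Fucotrim II, and 2 V1 genes were higher and 0 lower with each. The median log2 fold change of the V0 genes was 0.16 and 0.26 with Fucotrim I and II, and that of the V1 genes was 0.00070 and -0.041. After correction these medians were 0.0066 and 0.12 for V0 and 0.035 and 0.013 for V1. The difference between the sectors was not tested.

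ATP6V0E1, the small e subunit of the membrane sector, stood at 50.2, 50.5 and 53.6 CPM in DMSO, at 65.0, 66.5 and 65.2 with Fucotrim I and at 69.8 and 77.3 with Fucotrim II. Its treated libraries all lay above DMSO, with log2 fold changes of 0.35 ± 0.059 (SE, adjusted p = 6.55e-05) and 0.51 ± 0.073 (adjusted p = 0.000382), and the corrected values of 0.35 and 0.53 were close to these. Its libraries with SGN-2FF (51.2 to 54.8 CPM) and P-SiaFNEtoc (51.2 to 58.5) overlapped DMSO. ATP6V0B, the c'' subunit of the proton-carrying ring, stood at 252.1, 228.9 and 249.6 CPM in DMSO, at 313.0, 276.2 and 297.1 with Fucotrim I and at 322.2 and 391.8 with Fucotrim II. The groups did not overlap, and the log2 fold changes were 0.28 ± 0.054 (adjusted p = 0.000286) and 0.55 ± 0.086 (adjusted p = 0.000671), with corrected values of 0.15 and 0.32. It overlapped DMSO with SGN-2FF (227.2 to 255.1 CPM) and P-SiaFNEtoc (251.6 to 273.3).

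ATP6AP1, an accessory protein that takes part in pump assembly, stood at 176.3, 167.9 and 168.6 CPM in DMSO. It was at 220.1, 177.7 and 200.1 CPM with Fucotrim I and at 226.6 and 279.3 with Fucotrim II, and no treated library reached down to DMSO. The log2 fold changes were 0.22 ± 0.062 (SE, adjusted p = 0.00645; corrected 0.14) and 0.56 ± 0.085 (adjusted p = 0.000537). With SGN-2FF its libraries lay below DMSO at 163.6, 163.2 and 153.8 CPM without passing the test (log2 fold change -0.082, adjusted p = 0.17), and after correction the value of -0.12 passed (adjusted p = 0.00791). With P-SiaFNEtoc they overlapped DMSO at 166.7 to 183.1 CPM. ATP6AP2, the other accessory protein, passed the test with no inhibitor as counted (0.042 and 0.032 with Fucotrim I and II) and was called higher with both after correction (0.16 and 0.24, adjusted p = 0.00516 and 0.00461).

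ATP6V1A, the catalytic A subunit of the cytosolic sector, moved the other way. It stood at 151.2, 156.0 and 147.1 CPM in DMSO and at 123.6 and 118.9 with Fucotrim II. The log2 fold change with Fucotrim II was -0.33 ± 0.063 (SE, adjusted p = 0.00214), and the corrected value was -0.064 (adjusted p = 0.358). With Fucotrim I it was at 142.0, 143.5 and 131.5 CPM, with SGN-2FF at 137.5, 134.2 and 144.6 and with P-SiaFNEtoc at 140.9, 145.8 and 137.4. All of these lay below the DMSO libraries, but the log2 fold changes of -0.12, -0.12 and -0.096 did not pass the test (adjusted p = 0.0709, 0.0571 and 0.119). ATP6V1B2, the partner of the A subunit in the catalytic head, fell with Fucotrim I (-0.22 ± 0.057, adjusted p = 0.00353) and Fucotrim II (-0.34 ± 0.069, adjusted p = 0.00258), and ATP6V1C1, a stalk subunit, fell with Fucotrim II (-0.31 ± 0.072, adjusted p = 0.00595). All 3 are genes of low GC content (39.7% to 40.5%), and none of their falls passed the test after correction, where the values lay between -0.064 and -0.026.

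The rises of the other pump genes were small and less stable. ATP6V0C was called higher with Fucotrim I (0.16) and Fucotrim II (0.26), and after correction it was called lower with both (-0.13 and -0.23, adjusted p = 0.00866 and 0.0051). It has a GC content of 63.0%. Its call with Fucotrim I was lost without DMSO library 2 or 3 (adjusted p = 0.0644 and 0.0536), and that with Fucotrim II without any DMSO library or without Fucotrim II library 2 (adjusted p of 0.0509 to 0.101), where the value without Fucotrim II library 2 was 0.13. ATP6V1F rose with Fucotrim I (0.19) and had a corrected value of -0.029 (adjusted p = 0.644). ATP6V0D1 rose with Fucotrim I by 0.15 (adjusted p = 0.05, just under the threshold) and lost the call in 10 of 15 alternatives, with a corrected value of 0.0066 and a value of 0.083 without Fucotrim I library 1. Among these 10 were all single omissions of a library other than Fucotrim I library 2 (adjusted p of 0.08 to 0.26). ATP6V1E1, a stalk subunit, rose with Fucotrim I (0.15, adjusted p = 0.0289) and lost the call without any DMSO library or Fucotrim I library 1 (adjusted p of 0.0517 to 0.102), while its corrected value of 0.19 was called. ATP6V1G1, another stalk subunit, was not called with either Fucotrim as counted (0.079 and 0.16) and was called higher with both after correction (0.22 and 0.42). ATP6V0A1 was not called with any inhibitor as counted, with log2 fold changes of -0.13, 0.17, -0.10 and -0.051, and was called lower after correction with Fucotrim I (-0.16) and SGN-2FF (-0.10). ATP6V1D and ATP6V1H were called in neither fit, with counted values of -0.096 to 0.085.

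**Figure D4:**
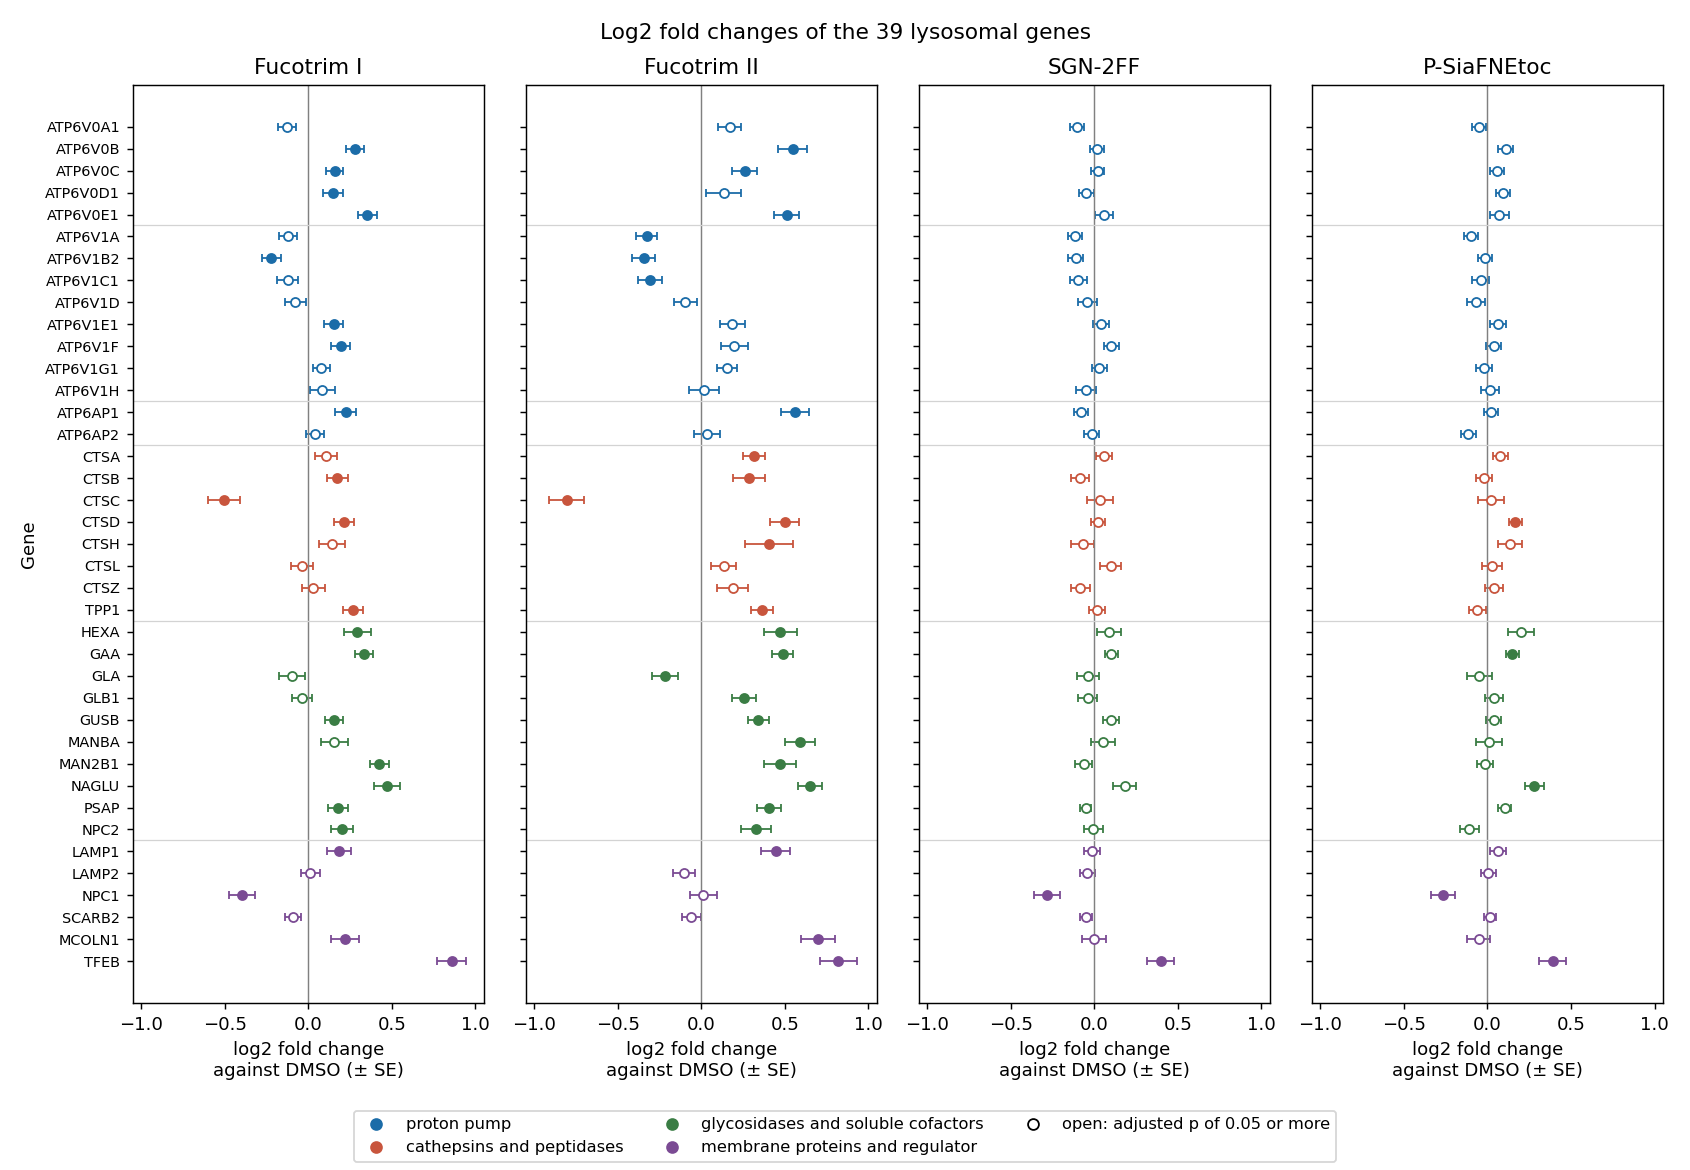
Log2 fold changes against DMSO with their SE for the 39 genes, 1 panel per inhibitor, ordered by role with the proton pump on top. Filled points passed an adjusted p of 0.05 and open points did not; 20 points are filled to the right with Fucotrim I and 21 with Fucotrim II, against 1 with SGN-2FF and 4 with P-SiaFNEtoc.

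Of the 8 cathepsins and other peptidases, 3 rose and 1 fell with Fucotrim I, and 5 rose and 1 fell with Fucotrim II. None passed with SGN-2FF and 1 rose with P-SiaFNEtoc. The shares were 37.5% and 12.5% with Fucotrim I, against 21.6% and 22.1% of all genes. With Fucotrim II they were 62.5% and 12.5%, against 25.6% and 25.7%. The 12.5% higher with P-SiaFNEtoc was near the 9.02% of all genes. After correction 2 were higher and 1 lower with Fucotrim I, against 18.7% and 20.5% of all genes. With Fucotrim II 4 were then higher and 1 lower, against 22.7% and 24.1%. None was then called with SGN-2FF or P-SiaFNEtoc. The gene that fell was CTSC, which encodes a dipeptidyl peptidase that activates granule proteases of immune cells. It stood at 21.0, 22.1 and 19.2 CPM in DMSO, at 15.1, 15.7 and 12.9 with Fucotrim I and at 12.3 and 11.5 with Fucotrim II. All treated libraries of both Fucotrims lay below DMSO, with log2 fold changes of -0.50 ± 0.096 (SE, adjusted p = 0.000265) and -0.81 ± 0.10 (adjusted p = 0.000239). Both falls were called in every alternative that kept the threshold of 0.05, and the corrected value with Fucotrim II was -0.53. CTSC overlapped DMSO with SGN-2FF (20.5 to 21.7 CPM) and with P-SiaFNEtoc (19.7 to 22.5 CPM), with log2 fold changes of 0.033 and 0.023.

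TPP1, a tripeptidyl peptidase, rose with both Fucotrims. It stood at 78.2, 84.9 and 79.3 CPM in DMSO, at 102.6, 91.5 and 97.2 with Fucotrim I and at 103.0 and 105.4 with Fucotrim II. No treated library of these groups overlapped DMSO. The log2 fold changes were 0.27 ± 0.059 (SE, adjusted p = 0.000979) and 0.36 ± 0.066 (adjusted p = 0.00145), near the corrected values of 0.26 and 0.33. With SGN-2FF (78.6 to 82.8 CPM) and P-SiaFNEtoc (74.3 to 80.7) it overlapped DMSO. An annotated gene on the same strand shares 11.6% of its exon bases.

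CTSD, the main aspartic protease of the lysosome, stood at 222.0, 205.7 and 219.1 CPM in DMSO, at 271.1, 223.6 and 254.6 with Fucotrim I, at 272.7 and 338.8 with Fucotrim II and at 237.6, 241.7 and 244.9 with P-SiaFNEtoc. These groups lay above DMSO without overlap, while the SGN-2FF libraries (211.2 to 227.2) overlapped it. The log2 fold changes were 0.22 ± 0.060 (SE, adjusted p = 0.00668), 0.50 ± 0.088 (adjusted p = 0.00127) and 0.17 ± 0.040 (adjusted p = 0.00427) with Fucotrim I, Fucotrim II and P-SiaFNEtoc. None of the 3 rises passed after correction, with values of -0.034, 0.094 and 0.069 (adjusted p = 0.539, 0.228 and 0.169), and CTSD has one of the higher GC contents of the 39 genes (64.0%). With P-SiaFNEtoc the call was also lost in a single fit of all 14 libraries (adjusted p = 0.179). Without Fucotrim II library 2 the value with Fucotrim II was 0.33. Other annotated genes share 27.3% of its exon bases on the same strand and 23.4% on the opposite strand.

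CTSB, a cysteine protease, was called higher with Fucotrim I (0.17, adjusted p = 0.0279) and Fucotrim II (0.29, adjusted p = 0.0293). With Fucotrim I the call was lost without DMSO library 2 or 3 or Fucotrim I library 1, with values of 0.14, 0.15 and 0.12 (adjusted p = 0.118, 0.117 and 0.116). With Fucotrim II it was lost without DMSO library 2 or 3, with values of 0.25 and 0.26 (adjusted p = 0.127 and 0.128), or Fucotrim II library 2, where the value fell to 0.12 (adjusted p = 0.18), and the value without Fucotrim II library 1 was 0.43. CTSH, an aminopeptidase, rose with Fucotrim II (0.41, adjusted p = 0.0384), from 26.8, 25.5 and 28.1 CPM in DMSO to 28.5 and 42.6, so 1 of the 2 libraries was close to DMSO. Its value was 0.080 without Fucotrim II library 2 (adjusted p = 0.504) and 0.67 without library 1, the call was lost without any DMSO library (adjusted p of 0.0879 to 0.127) and with limma-voom (adjusted p = 0.052), and the corrected value of 0.23 did not pass (adjusted p = 0.221). CTSA, the carboxypeptidase that also protects beta-galactosidase, rose with Fucotrim II (0.32, adjusted p = 0.00332) and not with Fucotrim I (0.11, adjusted p = 0.203). CTSL and CTSZ, cysteine proteases, passed with no inhibitor as counted, and CTSL was called higher with Fucotrim II after correction (0.26, against 0.13).

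The glycosidases and their soluble cofactors held the largest share of rises with both Fucotrims as counted. Of the 10 genes, 7 rose and none fell with Fucotrim I, against 21.6% and 22.1% of all genes. With Fucotrim II 9 rose and 1 fell, against 25.6% and 25.7%. None passed with SGN-2FF, and NAGLU and GAA rose with P-SiaFNEtoc, where 9.02% of all genes rose. After correction 5 and 8 of the 10 were higher with Fucotrim I and II, against 18.7% and 22.7% of all genes. None of the 10 was then lower with either, while 5 of the 6 membrane proteins and regulator were higher with Fucotrim II. With SGN-2FF 2 of the 10 were lower after correction, against 11.0%, and with P-SiaFNEtoc 1 was higher, against 7.45%. The median log2 fold change of the group was 0.19 with Fucotrim I and 0.44 with Fucotrim II as counted, and 0.15 and 0.21 after correction. That a larger share rose here than in the other groups was not tested.

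NAGLU, which removes N-acetylglucosamine residues from heparan sulfate, had the largest rise of the 10 with both Fucotrims and with P-SiaFNEtoc as counted. It stood at 38.4, 36.1 and 40.4 CPM in DMSO, at 58.8, 46.8 and 53.4 with Fucotrim I, at 59.7 and 60.9 with Fucotrim II and at 44.01, 47.36 and 47.95 with P-SiaFNEtoc. The 3 groups lay above DMSO without overlap, while SGN-2FF (44.1, 46.3 and 38.1 CPM) overlapped it. The log2 fold changes were 0.47 ± 0.077 (SE, adjusted p = 5.53e-05), 0.65 ± 0.074 (adjusted p = 0.000117) and 0.28 ± 0.059 (adjusted p = 0.00116). With SGN-2FF the value of 0.18 did not pass (adjusted p = 0.0571). The corrected values of 0.21, 0.22 and 0.17 were smaller and were still called. After correction HEXA (0.33), MANBA (0.31) and MAN2B1 (0.26) stood above NAGLU with Fucotrim I, and MANBA (0.87) and HEXA (0.56) with Fucotrim II. With P-SiaFNEtoc the corrected value of HEXA was 0.22 and was not called. No alternative that kept the threshold of 0.05 ended these 3 calls.

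MAN2B1, the lysosomal alpha-mannosidase, and MANBA, the lysosomal beta-mannosidase, both act on mannose in glycoprotein breakdown. MAN2B1 stood at 76.8, 72.6 and 77.1 CPM in DMSO, at 108.4, 96.0 and 99.3 with Fucotrim I and at 92.3 and 117.6 with Fucotrim II. Its treated libraries lay above DMSO, with log2 fold changes of 0.43 ± 0.059 (SE, adjusted p = 8.4e-06) and 0.47 ± 0.095 (adjusted p = 0.00273), corrected values of 0.26 and 0.19 that were still called, and a value of 0.28 without Fucotrim II library 2. The SGN-2FF libraries (68.7 to 76.9 CPM) and P-SiaFNEtoc libraries (74.0 to 75.2) overlapped DMSO, and with SGN-2FF the corrected value of -0.13 was called lower (adjusted p = 0.024), against -0.065 as counted. MANBA stood at 24.9, 26.7 and 22.7 CPM in DMSO and at 38.6 and 36.3 with Fucotrim II, again without overlap. Its log2 fold change with Fucotrim II was 0.59 ± 0.090 (adjusted p = 0.000555), and in contrast to most of the 39 genes this grew on correction, to 0.87. With Fucotrim I it stood at 26.6, 27.1 and 29.1 CPM, overlapping DMSO, and its value of 0.16 (adjusted p = 0.122) became 0.31 and was called on correction (adjusted p = 0.00224). It overlapped DMSO with SGN-2FF (24.9 to 26.2 CPM) and P-SiaFNEtoc (22.5 to 26.7). The part of the exon bases that other same-strand genes overlap came to 21.2% for MAN2B1, 9.69% for MANBA and 12.9% for NAGLU.

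GAA, the acid glucosidase that degrades lysosomal glycogen, stood at 178.2, 172.7 and 179.3 CPM in DMSO, at 233.4, 206.6 and 227.5 with Fucotrim I and at 237.8 and 259.5 with Fucotrim II. It was at 192.6, 190.9 and 180.4 CPM with SGN-2FF and at 193.8, 191.6 and 200.8 with P-SiaFNEtoc, so all 11 treated libraries lay above DMSO. The log2 fold changes were 0.33 ± 0.053 (SE, adjusted p = 3.57e-05), 0.49 ± 0.063 (adjusted p = 0.000227), 0.10 ± 0.040 (adjusted p = 0.0757, not called) and 0.15 ± 0.040 (adjusted p = 0.0103) in the same order. GAA has the highest GC content of the 39 genes, 64.8%, and none of its corrected values was called, at 0.072, 0.062, 0.013 and 0.045 (adjusted p = 0.134, 0.351, 0.823 and 0.431). With P-SiaFNEtoc the call was also lost in a single fit of all 14 libraries (adjusted p = 0.102).

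HEXA, the alpha subunit of beta-hexosaminidase, rose with Fucotrim I (0.29 ± 0.081, adjusted p = 0.00605) and Fucotrim II (0.47 ± 0.096, adjusted p = 0.0027) and kept its call in every alternative at the threshold of 0.05, with corrected values of 0.33 and 0.56. GUSB, the beta-glucuronidase, rose with both Fucotrims (0.15 and 0.34, adjusted p = 0.0251 and 0.00157). With Fucotrim I the GUSB call was lost without any DMSO library (adjusted p of 0.0678 to 0.0863) and on correction (0.075), and with Fucotrim II the corrected value of 0.19 was called. GLB1, the beta-galactosidase, rose with Fucotrim II (0.26, adjusted p = 0.0119), a call that was lost without DMSO library 1 or 2 (adjusted p = 0.0633 and 0.0602). GLA, the alpha-galactosidase, was the only one of the 10 to fall, with Fucotrim II (-0.22 ± 0.078, adjusted p = 0.041). That fall was lost without any DMSO library (adjusted p of 0.0697 to 0.114), with the DESeq2 test (adjusted p = 0.143), in a single fit of all 14 libraries (adjusted p = 0.056) and on correction (-0.059).

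The cofactors PSAP, whose saposins present lipids to hydrolases, and NPC2, which binds cholesterol in the lumen, rose with both Fucotrims. PSAP had log2 fold changes of 0.18 (adjusted p = 0.0168) and 0.41 (adjusted p = 0.00133), and NPC2 of 0.20 (adjusted p = 0.0196) and 0.33 (adjusted p = 0.0127). The PSAP call with Fucotrim I was lost without DMSO library 2 or 3 or Fucotrim I library 1 or 3 (adjusted p of 0.0535 to 0.0751), with a value of 0.11 without Fucotrim I library 1, and the corrected value of 0.086 was not called. With Fucotrim II the PSAP call was kept in every alternative at the threshold of 0.05, and the corrected value was 0.24. The NPC2 call with Fucotrim I was lost without DMSO library 3 or Fucotrim I library 1 or 3 (adjusted p of 0.0703 to 0.0791). With Fucotrim II it was lost without any DMSO library or Fucotrim II library 2 (adjusted p of 0.0508 to 0.0736), where the value without that library was 0.16, while its corrected values of 0.24 and 0.39 were called. With SGN-2FF the corrected value of PSAP was called lower (-0.10, against -0.053 as counted).

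Of the 5 membrane proteins, 2 rose and 1 fell with Fucotrim I, and 2 rose and none fell with Fucotrim II. With SGN-2FF and with P-SiaFNEtoc 1 fell. The shares of all genes were 21.6% higher and 22.1% lower with Fucotrim I, and 25.6% and 25.7% with Fucotrim II. Those lower were 9.08% with SGN-2FF and 7.33% with P-SiaFNEtoc. In the corrected fit 1 of the 5 was higher and 1 lower with Fucotrim I, against 18.7% and 20.5% of all genes. For Fucotrim II 4 were then higher and none lower, against 22.7% and 24.1%. NPC1, the cholesterol exporter of the lysosomal membrane, stood at 25.4, 27.2 and 26.0 CPM in DMSO. It was at 20.9, 19.3 and 19.4 CPM with Fucotrim I, at 20.1, 20.6 and 23.6 with SGN-2FF and at 22.8, 22.6 and 19.7 with P-SiaFNEtoc, all below DMSO, and at 26.2 and 26.8 with Fucotrim II, inside the DMSO range. The log2 fold change was -0.40 ± 0.079 with Fucotrim I (SE, adjusted p = 0.000439), -0.28 ± 0.075 with SGN-2FF (adjusted p = 0.00788) and -0.27 ± 0.072 with P-SiaFNEtoc (adjusted p = 0.0108), and correction left these at -0.38, -0.27 and -0.26. With Fucotrim II it was 0.012 ± 0.080 (adjusted p = 0.913), and whether this differs from the other inhibitors was not tested. The fall with Fucotrim I was called in every alternative at the threshold of 0.05. The fall with SGN-2FF was lost without SGN-2FF library 1 or 2 (adjusted p = 0.0537 and 0.0668), and that with P-SiaFNEtoc without P-SiaFNEtoc library 3 (-0.20, adjusted p = 0.0669).

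MCOLN1, the lysosomal calcium channel, stood at 33.2, 29.7 and 34.3 CPM in DMSO, at 41.5, 33.2 and 38.3 with Fucotrim I and at 47.3 and 58.1 with Fucotrim II. Fucotrim I overlapped DMSO and Fucotrim II did not. The log2 fold change was 0.70 ± 0.10 with Fucotrim II (SE, adjusted p = 0.000439), and the corrected value of 0.33 was called (adjusted p = 0.00234). With Fucotrim I it was 0.22 ± 0.083 (adjusted p = 0.037), the corrected value was 0.0 (adjusted p = 1), and the call was lost without DMSO library 1 or 2, Fucotrim I library 1 or 3 (adjusted p of 0.0593 to 0.168), with a value of 0.15 without Fucotrim I library 1, and with the DESeq2 test (adjusted p = 0.0593) and a single fit of all 14 libraries (adjusted p = 0.0735). With SGN-2FF (28.9 to 34.9 CPM) and P-SiaFNEtoc (29.8 to 33.6) it overlapped DMSO, with log2 fold changes of -0.00050 and -0.053.

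LAMP1, a heavily N-glycosylated protein that lines the lysosomal membrane, stood at 206.6, 175.9 and 191.4 CPM in DMSO, at 242.3, 198.9 and 209.8 with Fucotrim I and at 241.7 and 281.1 with Fucotrim II. Only the Fucotrim II libraries lay above all of DMSO. The log2 fold changes were 0.19 ± 0.071 (SE, adjusted p = 0.0441) and 0.44 ± 0.086 (adjusted p = 0.0021). The call with Fucotrim I was lost on correction (adjusted p = 0.099) and without DMSO library 2 or 3 or Fucotrim I library 1 or 3 (adjusted p of 0.0635 to 0.166), with a value of 0.10 without Fucotrim I library 1, while that with Fucotrim II was kept in every alternative at the threshold of 0.05. LAMP1 overlapped DMSO with SGN-2FF (182.9 to 192.4 CPM) and P-SiaFNEtoc (192.0 to 206.0). LAMP2, the related membrane protein, and SCARB2, the receptor that carries beta-glucocerebrosidase to the lysosome, passed with no inhibitor as counted, with values of -0.11 to 0.016 over the 2 genes. Both are of low GC content (36.0% and 42.2%), and after correction LAMP2 was called higher with Fucotrim I (0.22), Fucotrim II (0.29) and P-SiaFNEtoc (0.12) and SCARB2 with Fucotrim II (0.15).

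**Figure D5:**
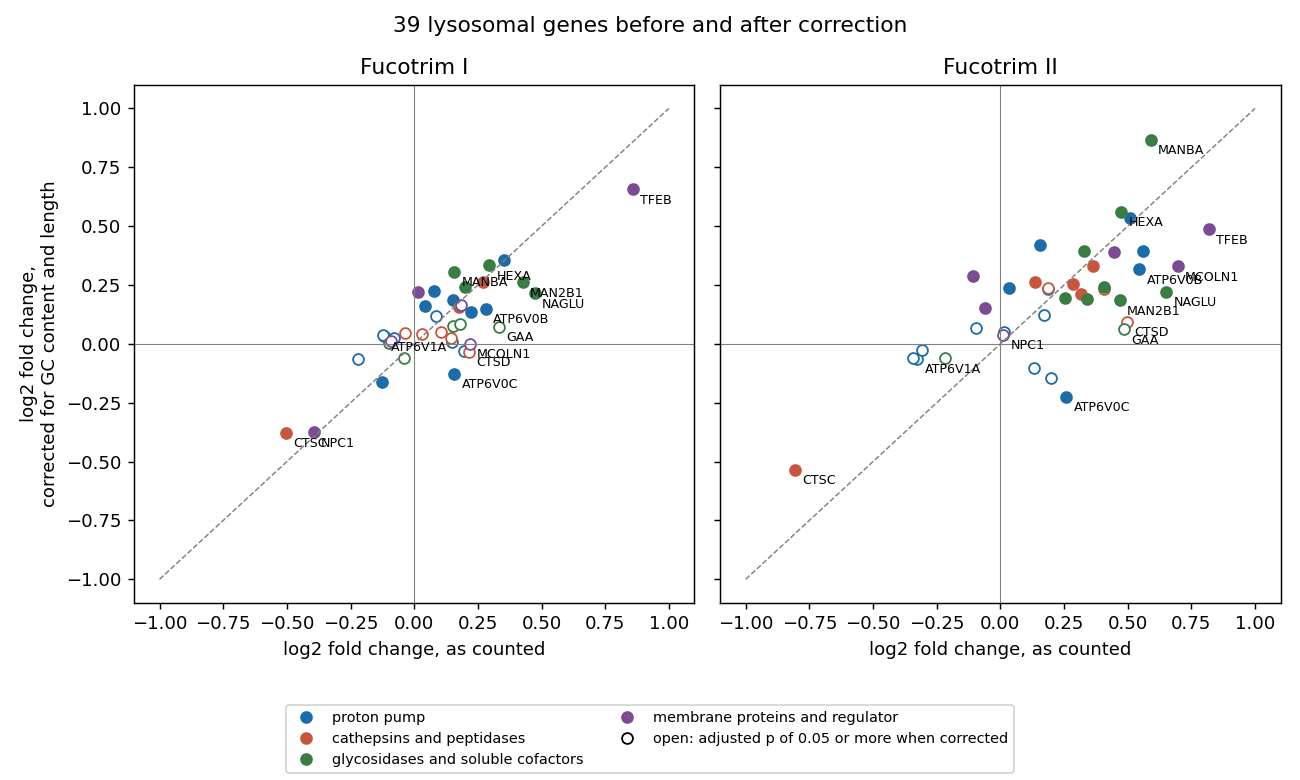
Log2 fold change of the 39 genes as counted (horizontal axis) and after correction for GC content and exon length (vertical axis) with Fucotrim I and II, where the dashed line marks equal values and filled points passed an adjusted p of 0.05 after correction. TFEB, NAGLU and CTSC are still called after correction, GAA and CTSD drop to near 0, MANBA lies above the line, and ATP6V0C turns from positive to negative.

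The 2 Fucotrim II libraries differed from each other in these genes. Library 2 was higher than library 1 for 30 of the 39 genes, and the median log2 difference of the 39 genes from the DMSO mean was 0.34 in library 2 and 0.14 in library 1. In the Fucotrim I group, library 1 was the highest of the 3 for 29 of the 39 genes, and the medians were 0.21, 0.053 and 0.13. Library 2 of Fucotrim II and library 1 of Fucotrim I were also those of their groups with the largest median in the bin of genes with the highest GC content (0.40 and 0.23), and the part of this in the differences was not tested.

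The 8 genes with CACGTG in the promoter window were called higher in 6 of 8 cases with Fucotrim I and in 6 of 8 with Fucotrim II, none was called lower, and their median log2 fold changes were 0.20 and 0.47. Of the 20 genes with a window without these letters, 9 were higher and 2 lower with each Fucotrim, with medians of 0.093 and 0.19. After correction 2 and 5 of the 8 were higher, against 7 and 11 of the 20, with medians of 0.061 and 0.26 against 0.033 and 0.19. With Fucotrim I the share called higher was thus larger in the 8 as counted and smaller in the 8 after correction. With Fucotrim II it stayed larger in the 8. Of all genes, 21.6% and 25.6% were higher with Fucotrim I and II as counted, and 18.7% and 22.7% after correction. With SGN-2FF none of the 8 passed as counted and with P-SiaFNEtoc 2 rose (CTSD and GAA). These counts were not tested against each other.

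Other genes of the lysosome were read from 6 lists of 120 genes in all, none of them among the 39. With Fucotrim I, 39 of the 109 that could be tested rose and 13 fell, and with Fucotrim II 53 rose and 13 fell, with medians of 0.089 and 0.25. With SGN-2FF 14 rose and 6 fell of 109, and with P-SiaFNEtoc 12 rose and 1 fell of 108, with medians of -0.0045 and 0.041. These were 35.8% higher and 11.9% lower with Fucotrim I, against 21.6% and 22.1% of all genes, and 48.6% and 11.9% with Fucotrim II, against 25.6% and 25.7%. With SGN-2FF the shares of 12.8% and 5.50% stood against 11.5% and 9.08%, and with P-SiaFNEtoc those of 11.1% and 0.926% against 9.02% and 7.33%, so the rises with both were near the background. After correction 30 rose and 14 fell with Fucotrim I and 48 and 10 with Fucotrim II. The genes named below as leading a list lead among those with a mean of at least 50 counts.

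Of the other lysosomal enzymes and cofactors, 15 of 34 (44.1%) rose and 2 (5.88%) fell with Fucotrim I, against 21.6% and 22.1% of all genes. With Fucotrim II 21 (61.8%) rose and 4 (11.8%) fell, against 25.6% and 25.7%. After correction 12 were higher and 4 lower with Fucotrim I, against 18.7% and 20.5%. With Fucotrim II 17 were then higher and 2 lower, against 22.7% and 24.1%. The largest rise was in IDUA, the iduronidase that, like NAGLU, acts on heparan sulfate. It went from 15.2 ± 0.930 CPM (SD, n = 3) to 32.5 ± 3.38 with Fucotrim I (log2 fold change 1.10 ± 0.090, adjusted p = 8.53e-09) and 51.0 ± 4.07 with Fucotrim II (1.74 ± 0.091, adjusted p = 3.58e-06), with corrected values of 0.79 and 1.23. CTSK, a cysteine protease of bone-resorbing cells that was named after its values were seen, lay under that minimum with 18 to 26 counts in DMSO, 23 to 47 with Fucotrim I and 70 to 88 with Fucotrim II, and was called higher with both (1.08 and 1.88, adjusted p = 0.00196 and 0.000221). The largest fall was in PPT1, which removes fatty acids from proteins, at -0.41 and -0.48 (adjusted p = 4.58e-06 and 0.000395). With SGN-2FF 5 of 34 (14.7%) rose, led by the dipeptidyl peptidase DPP7 (0.26, corrected 0.17), and 3 (8.82%) fell, led by the acid lipase LIPA (-0.23). Of all genes, 11.5% rose and 9.08% fell with SGN-2FF. With P-SiaFNEtoc 3 of 34 (8.82%) rose, led by PLBD2 (0.21), and none fell, against 9.02% and 7.33% of all genes.

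Of the other proton pump subunits, 10 were listed and 6 could be tested with the fucosylation inhibitors (5 with P-SiaFNEtoc). TCIRG1, the a3 subunit of the membrane sector, rose with Fucotrim I (0.58 ± 0.070, adjusted p = 1.73e-06; corrected 0.30) and Fucotrim II (0.87 ± 0.075, adjusted p = 3.11e-05; corrected 0.42), and ATP6V1C2 rose with SGN-2FF (0.35, adjusted p = 0.0197). In all, 3 of the 6 rose under Fucotrim I, 2 under SGN-2FF and 1 under Fucotrim II, and none fell. None of the 5 passed with P-SiaFNEtoc. Of all genes, 21.6% rose with Fucotrim I, 11.5% with SGN-2FF and 25.6% with Fucotrim II, so the share with Fucotrim II was below the background. In the corrected fit 3 of the 6 were higher with each Fucotrim, against 18.7% and 22.7% of all genes. For SGN-2FF 2 were then higher, against 12.2%, and none was lower with these 3 inhibitors.

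Of 23 other lysosomal membrane proteins, 10 rose and 4 fell with Fucotrim I, 13 and 2 with Fucotrim II, 3 and 0 with SGN-2FF and 4 and 1 with P-SiaFNEtoc. ABCA2, a lipid transporter, led the rises with Fucotrim I (0.56, adjusted p = 2.22e-08; corrected 0.29). LAMP3, a relative of LAMP1, led those with Fucotrim II (1.30, adjusted p = 0.000236) and P-SiaFNEtoc (0.61, adjusted p = 0.0176) at a low level in DMSO of 2.62 ± 0.200 CPM (SD, n = 3). It passed the minimum of 50 counts there through the treated libraries, with 44 to 47 counts in DMSO. With Fucotrim I, where it lay under the minimum and is given after its values were seen, it had 15 to 26 counts and was called lower (-0.85, adjusted p = 0.00645), and with SGN-2FF its value of -0.63 was not called (adjusted p = 0.0541). The tetraspanin CD63 led with SGN-2FF (0.27, adjusted p = 6.29e-06). The other falls were led by SLC38A9 with Fucotrim I (-0.29, corrected -0.084 and not called), OSTM1 with Fucotrim II (-0.34, corrected -0.041 and not called) and MFSD8 with P-SiaFNEtoc (-0.30, corrected -0.19 and not called).

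Of 13 genes for sorting to lysosomes, 3 rose and 4 fell with each Fucotrim, 2 rose and 1 fell with SGN-2FF, and 1 rose with P-SiaFNEtoc. The shares with each Fucotrim, 23.1% and 30.8%, were near the background, and after correction 1 was higher and 3 were lower with each. GNPTG, the gamma subunit of the transferase that starts the mannose phosphate tag, rose from 26.2 ± 2.37 CPM (SD, n = 3) to 43.5 ± 4.93 with Fucotrim I (log2 fold change 0.74 ± 0.086, adjusted p = 1.14e-06) and 68.8 ± 3.15 with Fucotrim II (1.39 ± 0.086, adjusted p = 7.59e-06). AP3B1, an adaptor subunit, fell with both (-0.29 and -0.39), and neither fall passed on correction (-0.13 and -0.083). With SGN-2FF the rise was led by GGA1 (0.23) and the fall was in SORT1 (-0.15, corrected -0.11 and not called), and with P-SiaFNEtoc AP1S1 rose (0.19, corrected 0.11).

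Of 16 tested genes for the relatives of TFEB and for nutrient sensing at the lysosome, 5 rose and 2 fell with Fucotrim I, 6 and 2 with Fucotrim II, 1 and 1 with SGN-2FF and 1 and 0 with P-SiaFNEtoc. The rises came to 31.2% and 37.5% with Fucotrim I and II, against 21.6% and 25.6% of all genes. After correction 3 were higher and 4 lower with Fucotrim I, and 4 and 4 with Fucotrim II. These corrected shares were near the background of 18.7% and 20.5% with Fucotrim I and 22.7% and 24.1% with Fucotrim II. LAMTOR4, a subunit of the Ragulator complex, led the rises with Fucotrim I (0.31, corrected 0.10 and not called) and FNIP2 the falls (-0.36). RRAGB rose with Fucotrim II (0.55) and RRAGC, another Rag GTPase, fell with Fucotrim II (-0.51, corrected -0.36) and SGN-2FF (-0.19, corrected -0.15 and not called). LAMTOR1 rose with SGN-2FF (0.19) and P-SiaFNEtoc (0.14, corrected 0.075 and not called).

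Of 17 autophagy genes, 3 rose and 1 fell with Fucotrim I, 9 rose and 1 fell with Fucotrim II, 1 rose and 1 fell with SGN-2FF and 3 rose with P-SiaFNEtoc. The rises came to 17.6% with Fucotrim I, near the 21.6% of all genes, and to 52.9% with Fucotrim II, against 25.6%. With P-SiaFNEtoc 17.6% rose, against 9.02%. GABARAPL1, which marks autophagosome membranes, rose with Fucotrim II (0.80 ± 0.083, adjusted p = 7.32e-05) and P-SiaFNEtoc (0.31 ± 0.075, adjusted p = 0.00475), and its relative GABARAP rose with Fucotrim I (0.29) and SGN-2FF (0.17). ATG5 fell with Fucotrim I (-0.20) and Fucotrim II (-0.27) as counted, and neither fall passed on correction (-0.025 and 0.048). SQSTM1, the autophagy receptor, fell with SGN-2FF, from 211.6 ± 10.3 to 176.2 ± 6.65 CPM (SD, n = 3; log2 fold change -0.25 ± 0.043, adjusted p = 0.000106).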

How the data were processed

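Stranded mRNA libraries were sequenced by the authors in single-read mode. Reads were trimmed (Cutadapt), aligned to hg38 (HISAT2) and assigned to genes (featureCounts). They deposited raw counts, 1 table per inhibitor with the same DMSO libraries, checked to be identical over the 27819 shared genes. The annotation release, strand setting and handling of multimapped reads are not given in the sources used here, so reads shared with overlapping genes cannot be assigned. The SGN-2FF table holds gene numbers only, and 549 stayed without a symbol.

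Low genes were removed with filterByExpr (counts of 10 at least, 15 in total), libraries were scaled by TMM, and each inhibitor was fitted alone with DMSO by edgeR 4.0.16 (robust quasi-likelihood test, Benjamini-Hochberg adjustment, threshold 0.05) in R 4.3.3, which was tested on simulated data. In these simulated data 6.49% to 11.2% of the calls were false, and 58.2% to 78.8% of the smaller changes put in were recovered. Those changes were larger than the median log2 fold change of the genes described here with any inhibitor. Both rates depend on how many genes change and by how much, so they cannot be carried over to the calls above. Levels are CPM after TMM scaling of all 14 libraries. The SE is the fold change over the root of its F statistic. Biological repeats were 3 per condition as stated in the study, and for Fucotrim II 2 of them are analysed. The precision is limited by these numbers.

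Alternatives were limma-voom (limma 3.58.1), the DESeq2 1.42.0 test and its size factors, no filter, at least 10 counts in every library, each library left out, the replicate number as a block, a threshold of 0.01, a single fit of the 14 libraries and leaving out 37 mitochondrially encoded genes. The correction for GC content and exon length (GENCODE, hg38) was added after seeing the data.

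Same-numbered libraries were checked for shared deviations, and their correlations by the numbers in the titles, from -0.23 to 0.15, were not all above 0.1. The Fucotrim II libraries are numbered 1 and 2 in the titles and 2 and 3 in the library names, and by the latter the correlations were 0.23 and 0.065. The numbers were not taken as pairs. The 39 genes and the lists were chosen with earlier results of these data known. Values in single libraries are given for TFEB, LAMP1, CTSD and ATP6V1A, and per role and inhibitor for the 2 genes with the largest change that passed the test without overlap with DMSO. Of each other list, the largest rise and fall per inhibitor are named, with a mean of at least 50 counts. Counts of N-glycosylation sites had been planned and were not made.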

Additional observations from a re-analysis of the deposited data

How the results depend on the processing

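Of the genes called, 8 of 20 higher and 2 of 3 lower with Fucotrim I, 13 of 21 and 1 of 5 with Fucotrim II, 1 of 1 and 0 of 1 with SGN-2FF and 2 of 4 and 0 of 1 with P-SiaFNEtoc were called in every alternative at the threshold of 0.05. Correction for GC content and length turned ATP6V0C with Fucotrim I (-0.13) and Fucotrim II (-0.23), and ATP6V1F (-0.029) and CTSD (-0.034) with Fucotrim I, and moved the counts of genes of the 39 called lower to 2 with Fucotrim II and 6 with SGN-2FF. An adjusted p under 0.01 left 11 higher with Fucotrim I, 0 lower with P-SiaFNEtoc, 1609 of all genes with SGN-2FF and 1171 with P-SiaFNEtoc, and in the other lists 7 lower with Fucotrim II, 2 lower with SGN-2FF and 6 higher and 0 lower with P-SiaFNEtoc. A single fit of all 14 libraries gave 1695 genes with SGN-2FF and 998 with P-SiaFNEtoc, 2 of the 39 higher with P-SiaFNEtoc, and in the other lists 8 higher and 2 lower with SGN-2FF and 3 higher and 0 lower with P-SiaFNEtoc. The DESeq2 test gave 1949 and 1463 genes with SGN-2FF and P-SiaFNEtoc, and 2 and 0 lower in the other lists. With SGN-2FF, no filter gave 2 of the 39 higher and 3 lower, and DESeq2's size factors 2 lower. With SGN-2FF the median log2 fold change of the 8 peptidase genes was -0.024 on correction and -0.014 to 0.018 with 1 library left out. The median level in DMSO per kilobase was 20.5 with the longest transcript. The cause of these shifts was not tested.

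Leaving out 1 library at a time gave 12 to 21 of the 39 higher and 3 to 5 lower with Fucotrim I (12 without DMSO library 2 or 3, 13 without Fucotrim I library 1, 5 lower without Fucotrim I library 1), 16 to 27 and 4 to 6 with Fucotrim II, 1 to 4 and 0 to 2 with SGN-2FF, and 4 and 1 to 2 with P-SiaFNEtoc. All genes called ranged from 1642 to 3109 with SGN-2FF and from 1516 to 2115 with P-SiaFNEtoc. In the other lists, 2 to 8 were lower with SGN-2FF and 7 to 10 higher and 0 to 1 lower with P-SiaFNEtoc.

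With the replicate number as a block, 7 of the 39 were lower with Fucotrim I, and 16 higher and 4 lower with Fucotrim II, where the other lists had 6 lower. With the numbers of the library names, 24 were higher and 5 lower with Fucotrim II. With the title numbers, the block ended the calls of ATP6V0C, CTSA, CTSB, GLA, GLB1 and NPC2 with Fucotrim II (adjusted p of 0.0562 to 0.307).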
